A study of Mus musculus with 16 samples.

Results

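Mitochondrial ribosomal proteins were followed in the gastrocnemius, the large calf muscle, of mice from 2 calcineurin knockout lines. Members were the probe sets whose only annotated symbol was Mrpl or Mrps followed by digits, with an optional final letter and no pseudogene symbols. These were 85 probe sets, and keeping the probe set with the highest mean over the 16 arrays for each gene left 77 genes out of 19938 with a probe set of a single symbol. All 77 passed the filter on low values, a mean log2 value at or above 6.18, the 30th percentile of single-symbol probe sets. The 77 genes comprise 48 named Mrpl, after the large subunit, and 29 named Mrps, after the small subunit.

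Each of 16 male mice of a C57Bl6J background gave 1 total RNA sample, hybridised to its own Affymetrix Mouse Gene 1.0 array. Butter fat supplied 40% of the calories in the food of every mouse, wild-type (WT) controls included, over a minimum of 8 weeks. Ages were not found in the sources used here. In the Ppp3cb line the knockout (KO) is global and removes a catalytic subunit of the phosphatase calcineurin, and 4 arrays are labelled KO and 4 WT. In the Ppp3r1 line, named Ppp3r1MlcCre, the regulatory subunit is deleted in muscle through a Cre recombinase driven by a myosin light chain promoter, again with 4 KO and 4 WT arrays. WT mice of both lines are littermates. Whether the Ppp3r1 WT mice carry the Cre is not given in the sources used here, and non-muscle cells of the tissue keep the gene. Replicates are separate mice, so errors and p-values measure the spread between animals, and 4 per group limits their precision.

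The mitochondrial ribosome translates the few messages of the mitochondrial genome, all of which encode membrane subunits of the respiratory chain and the ATP synthase. All of its proteins are encoded in the nucleus, made in the cytosol and imported. Part of them descend from the bacterial ribosome, and the others were added in mitochondria, many of them at the surface of the particle. Skeletal muscle needs this machinery to build its oxidative capacity. In the classes used here, 30 members are bacterial-type proteins of the large subunit, 20 are mitochondria-specific proteins of the large subunit, 17 are bacterial-type proteins of the small subunit and 9 are mitochondria-specific proteins of the small subunit. Mrps18a and Mrps30 were counted with the large subunit, where both proteins reside despite their names. Mrps36 was left outside the classes because its product is known as a component of the 2-oxoglutarate dehydrogenase complex.

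The targeted genes were read as a check of the labels. Ppp3r1 lay between 8.98 and 9.28 on the log2 scale on the 4 Ppp3r1 KO arrays and between 9.36 and 9.64 on the 4 WT arrays of that line. The log2 difference was -0.32 (SE 0.13, limma adjusted p = 0.372). Ppp3cb went against its label on 4 of 8 arrays. It was at 11.74 and 11.61 in animals 6 and 9, which are labelled KO, and at 10.37 and 10.23 in animals 23 and 24, which are labelled WT. Values of that line are therefore given by label, without those 4 arrays, and by Ppp3cb value. On its arrays with Ppp3cb below 11, Ppp3r1 was also lower without overlap, by -0.30 (SE 0.10, limma adjusted p = 0.220). A gap of this size in Ppp3r1 is thus not particular to the Ppp3r1 KO label. Markers of skeletal muscle fibres, such as Acta1 and Ckm, summed to between 16.97 and 17.08 on the log2 scale on every array.

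The members' array medians separated the lines and not the labelled genotypes, as did those of other mitochondrial lists. For each array, the median over the 77 members of the deviation from a gene's mean over 16 arrays was taken. In the Ppp3cb line this median lay between 0.12 and 0.24 on the log2 scale on all 8 arrays. In the Ppp3r1 line the WT animals 334, 336, 413 and 415 had medians of 0.00, -0.25, -0.14 and -0.03. The KO animals 331, 335, 414 and 416 of that line had medians of -0.44, -0.21, -0.16 and -0.04. The arrays of the lines did not overlap, while KO and WT overlapped within each line. In RNA from whole muscle, fewer cells of a type and less RNA per cell cannot be told apart. The same median over all 15252 tested transcript clusters (probe sets with a single symbol that passed the filter) ran from -0.00 to 0.08 over the arrays of the Ppp3cb line, and over those of the Ppp3r1 line from -0.12 to 0.01. The nuclear subunits of oxidative phosphorylation (OXPHOS) also parted the lines, with 0.08 to 0.22 in the Ppp3cb line and -0.41 to -0.00 in the Ppp3r1 line. The other genes of mitochondrial translation did so too, with 0.11 to 0.24 against -0.38 to -0.01, so the separation is not particular to the ribosomal proteins.

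**Figure D1:**
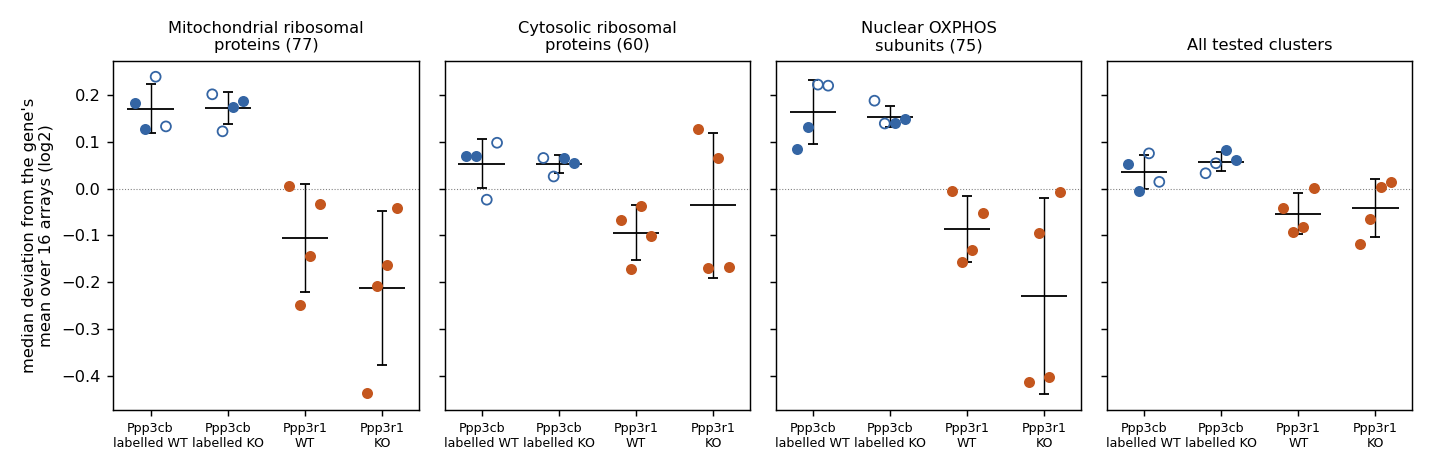
Median log2 deviation from each gene's mean over the 16 arrays, 1 point per array, for the mitochondrial ribosomal proteins and for the cytosolic ribosomal proteins, the nuclear subunits of oxidative phosphorylation (OXPHOS) and all tested clusters. Lines and bars give the group mean and SD (n = 4), and open circles mark arrays of the Ppp3cb line with Ppp3cb below 11; the 8 arrays of the Ppp3cb line lie between 0.12 and 0.24 for the mitochondrial ribosomal proteins, above all 8 arrays of the Ppp3r1 line.

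Mean log2 values of the members ran from 6.73 for Mrps17, a protein of the small subunit body, to 11.07 for Mrps21. Mrps36 and Mrpl44 were next to Mrps17 at the low end, and Mrpl37 and Mrpl23 next to Mrps21 at the high end. These positions describe probe sets, since probes differ in how brightly they report, and give no order of transcript abundance. The spread between mice within a group was widest for Mrpl42 (pooled SD 0.39), Mrps21 (0.34) and Mrpl34 (0.26). Mrpl42 shows what that spread looks like, at 8.83, 8.02, 8.76 and 8.92 in the WT mice of the Ppp3r1 line and at 7.39, 8.31, 7.99 and 8.74 in its KO mice. WT animal 336 and all 4 KO mice lay below the other 3 WT mice.

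**Figure D2:**
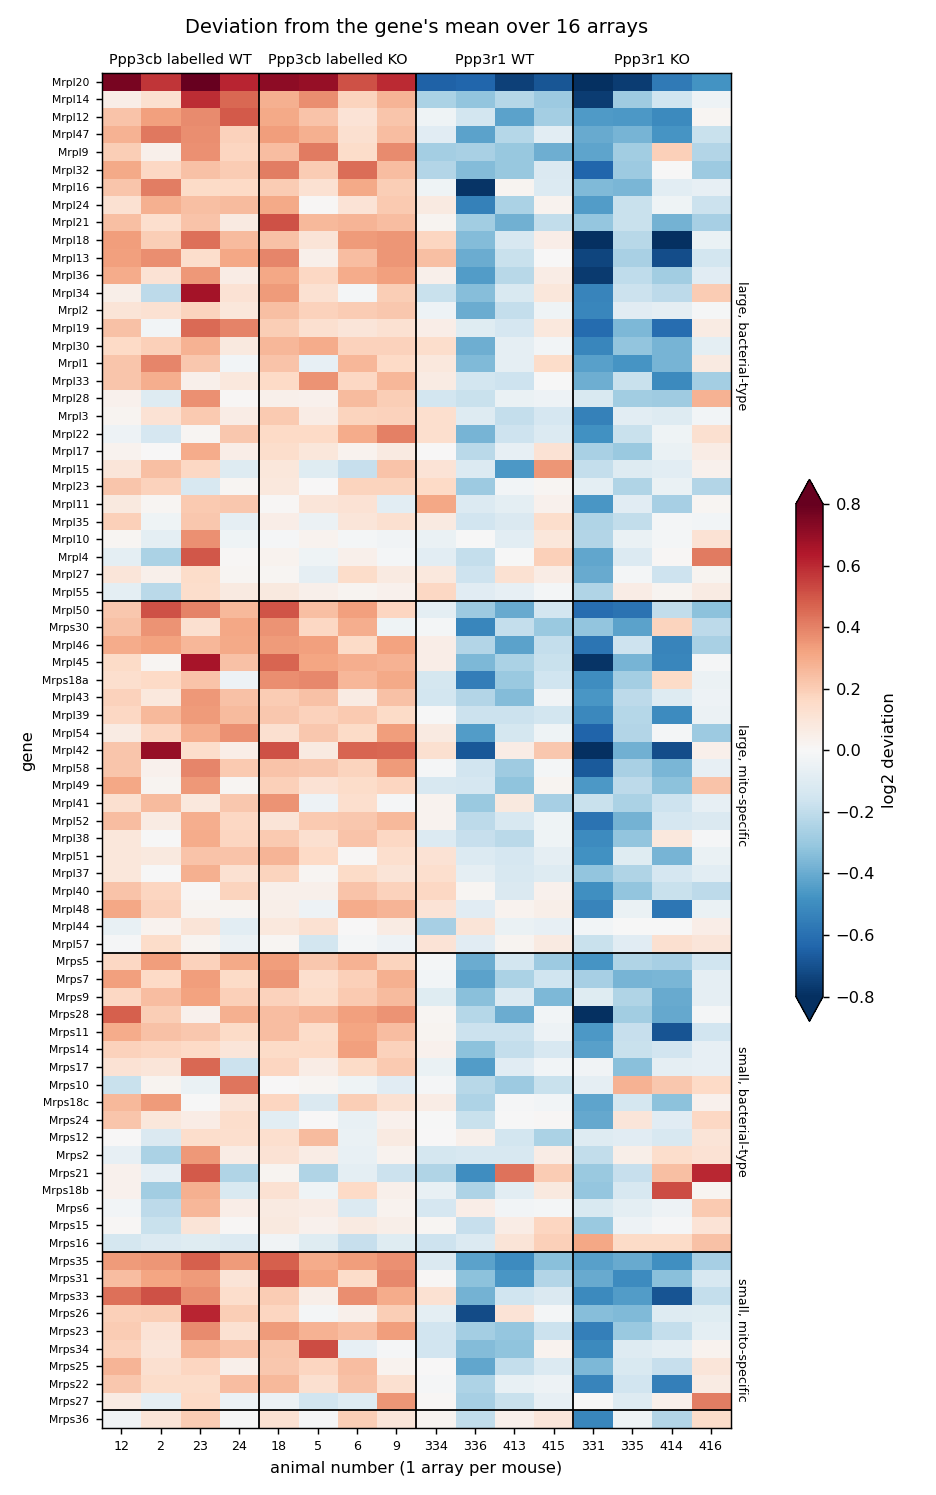
Log2 deviation of each of the 77 members from its own mean over the 16 arrays, with genes in rows by subunit class and arrays in columns by group and animal number. Colours saturate at 0.8 in either direction; most rows are above their mean in the Ppp3cb line and below it in the Ppp3r1 line, and animal 331 has the lowest array median, -0.44.

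Mice labelled WT in both lines were compared to ask how far the labelled controls differ. Of the Ppp3cb-line arrays labelled WT, animals 23 and 24 had Ppp3cb values that go against the label. WT here and below means the label. Of the 77 members, 34 were lower in the Ppp3r1 line at an adjusted p under 0.05 (limma, Benjamini-Hochberg over all tested clusters) and 0 were higher. Among all tested clusters 24.3% were called lower and 10.7% higher, 35% in all. Without regard to calls, 74 members were lower, with a median log2 difference of -0.29, against 61.5% of all clusters and a median of -0.10. The groups of 4 did not overlap for 37 members, all lower, where 22.7% of all clusters were lower without overlap and 8.47% higher. Line and array handling cannot be told apart here, because each line forms a set of its own.

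Each class held called members, all of them lower. Of all clusters 24.3% were called lower, and 35% in either direction. The bacterial-type classes had 33.3% (large subunit) and 35.3% (small subunit) called. In the bacterial-type large subunit 10 of 30 members were called, with a median log2 difference of -0.28, and in the mitochondria-specific large subunit 11 of 20, with a median of -0.32. In the small subunit 6 of 17 bacterial-type members were called, with a median of -0.23, and 7 of 9 mitochondria-specific members, with a median of -0.43. Whether the classes differ from each other was not tested. Of the OXPHOS subunits 72 of 75 were lower in the Ppp3r1 line, with a median of -0.23, and 29 were called lower and 2 higher.

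Mrpl20, a bacterial-type protein that in bacteria acts early in assembly of the large subunit, stood farthest apart. Its log2 value was 8.82, 8.63, 8.91 and 8.67 in the WT mice of the Ppp3cb line and 7.41, 7.42, 7.31 and 7.37 in those of the Ppp3r1 line. The log2 difference was -1.38 (SE 0.09, limma adjusted p = 2.53e-07), or 2.60-fold lower in the Ppp3r1 line. The mice labelled KO, which this test did not use for the difference, ran from 8.57 to 8.77 in the Ppp3cb line, and in the Ppp3r1 line from 7.25 to 7.58. Whatever the genotype label, the highest array of the Ppp3r1 line, 7.58, lay below the lowest of the Ppp3cb line, 8.57.

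Mrps35, a mitochondria-specific protein of the small subunit head, was 8.20, 8.22, 8.34 and 8.21 in WT mice of the Ppp3cb line and 7.75, 7.44, 7.36 and 7.53 in those of the Ppp3r1 line. All 4 values of the Ppp3r1 line were below all 4 of the Ppp3cb line, and the line effect was -0.72 on the log2 scale (SE 0.09, limma adjusted p = 0.000107). Mrpl47, the counterpart of a bacterial protein beside the polypeptide exit tunnel, was lower by a log2 difference of -0.52 (SE 0.09), although its second probe set gave -0.21 and was not called. Mrps9, whose bacterial counterpart reaches the peptidyl-tRNA site, was lower by -0.46 (SE 0.09). Also called lower were Mrpl12, the stalk protein that engages translation factors, with -0.58 (SE 0.12), and Mrpl45, which lies near the tunnel exit and the inner membrane, with -0.45 (SE 0.15). Mrpl58, a peptidyl-tRNA hydrolase built into the large subunit, was called as well.

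The other called members of the large subunit were Mrpl2, Mrpl9, Mrpl14, Mrpl16, Mrpl21, Mrpl24, Mrpl32, Mrpl39, Mrpl41, Mrpl43, Mrpl46, Mrpl50, Mrpl52, Mrpl54, Mrps18a and Mrps30. Those of the small subunit were Mrps5, Mrps7, Mrps11, Mrps14, Mrps23, Mrps25, Mrps26, Mrps28, Mrps31, Mrps33 and Mrps34. The second probe sets of Mrps5 and Mrps33 were also called lower, with log2 differences of -0.55 and -0.47. The second probe set of Mrpl41 gave -0.14 and was not called. Probe sets were assigned to genes by symbol, and the position of each in the genome was not checked. In the fit as reported 3 members had a log2 difference above 0, none of them called. They were Mrps16 with 0.12 (SE 0.09), Mrps15 with 0.03 (SE 0.10) and Mrpl55 with 0.02 (SE 0.10), and Mrps15 and Mrpl55 turned below 0 when arrays were centred on their median. Repeated quantile normalization put 13 members above 0, and omitting animal 23 of the Ppp3cb line's WT group put 9 there.

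Arrays labelled KO gave a second reading of the line difference from other mice, added after the data were seen. Between them 52 members were lower in the Ppp3r1 line and 1 higher at an adjusted p under 0.05 (limma), against 54.6% of all clusters called, 33.9% lower and 20.8% higher, with a median log2 difference of -0.40 for the members and -0.12 for all clusters. Of the 34 members called between WT groups, 33 were also called lower between KO-labelled groups. The like share for all clusters called lower between WT groups was not taken, so this overlap cannot be called particular to the members. Mrpl20 differed by -1.28 (SE 0.09). These groups differ in genotype as well as in line.

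Several settings moved the WT count. A repeated quantile normalization left 24 members called lower and 0 higher, with a median log2 difference of -0.22, and centring on array medians gave 48, with a median of -0.40 for the members and -0.21 for all clusters. Leaving out WT animal 336 left 19, and leaving out the 4 arrays whose Ppp3cb level went against the label left 14, all lower. Of 15252 clusters, 2950 were called lower with repeated quantile normalization, 5674 with centring, 2290 without animal 336 and 2179 without the 4 arrays. The last setting keeps only animals 12 and 2 as WT of the Ppp3cb line. In these 4 settings the members' median minus that of all clusters lay between -0.19 and -0.13 on the log2 scale. The filter on low values moved this gap further. It was -0.31 with no filter and -0.11 with the filter at the 50th percentile, where the median of all clusters was -0.18. With that stricter filter 33 of 73 members were called lower and 0 higher, and of 10895 clusters 3459 lower and 617 higher.

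Other tissue markers moved with the line. All 7 markers of slow fibres, which are rich in mitochondria, were called lower in WT mice of the Ppp3r1 line, with a median log2 difference of -1.88. Their summed log2 level lay between 10.83 and 12.91 there and between 13.24 and 15.05 in WT mice of the Ppp3cb line. All 8 macrophage markers were called lower as well, with a summed level of 9.73 to 10.11 against 10.47 to 11.01. Called lower too were 3 of 5 fibroblast, 2 of 2 Schwann cell and 2 of 6 endothelial markers, against 24.3% of all clusters, and 0 of 5 adipocyte and 0 of 5 tendon markers were called. Of the 9 skeletal muscle markers, Myh1 was called lower (-0.44) and Pvalb higher (0.18). The part of these cells and fibres in the members' difference was not tested.

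**Figure D3:**
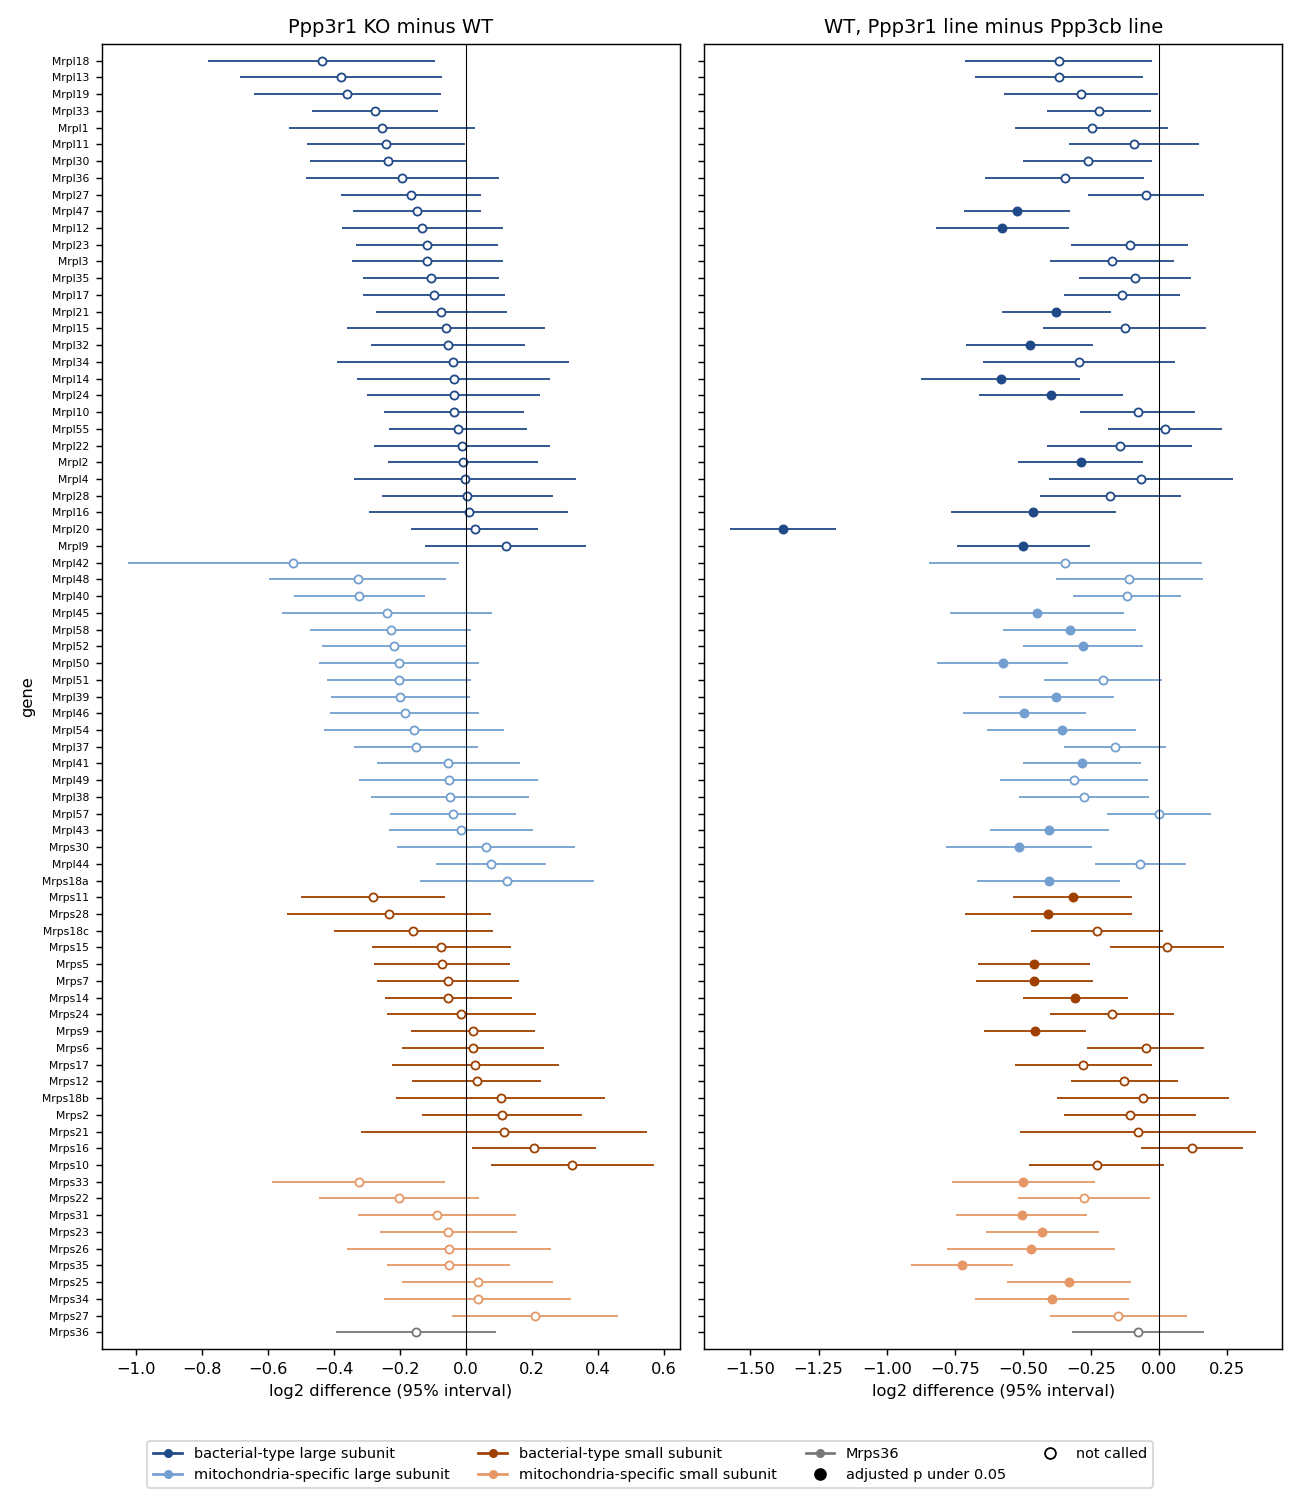
Left, log2 difference of each member with its 95% interval in Ppp3r1 KO minus WT. Right, the same between mice labelled WT of the Ppp3r1 and Ppp3cb lines. Points are coloured by subunit class and filled where the limma adjusted p is under 0.05. No point is filled on the left, and the 34 filled points on the right all lie below 0, with Mrpl20 at -1.38.

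Muscle labelled Ppp3r1 KO was compared with muscle of WT littermates to ask which transcripts differ with that label. Ppp3r1 itself was still measured at 8.98 to 9.28 on the KO arrays. Its log2 difference was -0.32 (SE 0.13, limma adjusted p = 0.372) and it was not called. The comparison is therefore not one of complete loss of the transcript in the tissue. Of the 77 members 0 were called in either direction, in a comparison where 1 of 15252 clusters (0.00656%), that of Myh2, was called. At an unadjusted p under 0.05 (limma) 10 members were lower and 2 higher, and 5.35% of all clusters were lower and 6.37% higher. In 58 members KO muscle had the lower mean, against 45.8% of all clusters, and the median log2 difference was -0.05 for the members and 0.02 for all clusters. The groups did not overlap for 2 members, both lower, where 1.71% of all clusters were lower without overlap and 3.15% higher.

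The lower values lay mostly in the large subunit. Of its bacterial-type members 26 of 30 were below 0, with a median log2 difference of -0.09, and of its mitochondria-specific members 17 of 20, with a median of -0.17. In the small subunit 8 of 17 bacterial-type members were below 0, with a median of 0.02, and 6 of 9 mitochondria-specific members, with a median of -0.05. The subunits were not tested against each other. The nuclear OXPHOS subunits showed 68 of 75 below 0 with a median of -0.15, and the cytosolic ribosomal proteins 16 of 60 with a median of 0.06, 0 called in either list.

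Mrpl40, a mitochondria-specific protein of the central protuberance of the large subunit, had the smallest p. It was 10.30, 10.15, 10.02 and 10.17 in WT and 9.64, 9.82, 9.96 and 9.93 in KO muscle. All KO values were below all WT values, and they differed by -0.32 on the log2 scale (SE 0.09, limma adjusted p = 0.363, two-sided exact permutation p = 0.0286, the smallest that 4 against 4 arrays can give). Mrpl33, the counterpart of a small bacterial protein near the tRNA exit site, was 7.57, 7.36, 7.34 and 7.50 in WT and 7.12, 7.33, 6.99 and 7.23 in KO muscle. Its groups also did not overlap, although KO animal 335 at 7.33 lay just below WT animal 413 at 7.34, and the log2 difference was -0.28 (SE 0.09, limma adjusted p = 0.363).

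Mrpl18, which in bacteria binds the 5S ribosomal RNA, was 9.77, 9.25, 9.47 and 9.65 in WT and 8.80, 9.38, 8.68 and 9.55 in KO muscle. Its log2 difference was -0.44 (SE 0.16, limma adjusted p = 0.366), and only KO animals 331 and 414 lay below the WT range. The same 2 mice were low for Mrps11, a protein of the small subunit platform, at 7.42 and 7.18 against 7.69 and 7.73 in the other KO mice and 7.70 to 7.90 in WT. Mrps11 differed by -0.28 (SE 0.10), Mrpl19 of the bacterial-type large subunit by -0.36 (SE 0.13) and Mrps33 of the small subunit head by -0.32 (SE 0.12), none of them called. The remaining members lower at an unadjusted p under 0.05 (limma) were Mrpl48, Mrpl13, Mrpl42 and Mrpl11, with log2 differences of -0.33, -0.38, -0.52 and -0.24. Animals 331 and 414 were also the lowest for the OXPHOS subunits, with array medians of -0.41 and -0.40, against -0.10 and -0.01 in the other 2 KO mice.

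Few members had the higher mean in KO muscle. Mrps10, a protein of the small subunit head, was 8.67, 8.46, 8.39 and 8.51 in WT and 8.61, 8.96, 8.90 and 8.84 in KO muscle. In all, 3 of the 4 KO values were above all WT values, and the log2 difference was 0.32 (SE 0.12, limma adjusted p = 0.366). Mrps16, a bacterial-type protein of the small subunit body, was 9.01, 9.06, 9.28 and 9.37 in WT and 9.48, 9.32, 9.33 and 9.41 in KO muscle, a gap of 0.21 on the log2 scale (SE 0.09, limma adjusted p = 0.396). Mrps27, a pentatricopeptide repeat protein of the small subunit, differed by 0.21 (SE 0.12). Mrpl9, Mrps18a and Mrps2 differed by 0.12 (SE 0.12), 0.12 (SE 0.13) and 0.11 (SE 0.12), and Mrpl9 turned to -0.01 without KO animal 414.

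Single arrays and the scaling moved the median and the count below 0. Repeated quantile normalization left 44 members below 0 and 33 above, with a median of -0.04. The median was -0.01 with 43 members below 0 without KO animal 331, and -0.12 with 67 below 0 without KO animal 416. Omitting WT animal 336 gave -0.11 and omitting KO animal 414 gave -0.09. The number of members at an unadjusted p under 0.05 (limma) ranged from 5 without KO animal 331 to 23 without KO animal 416, and was 6 when either KO animal 414 or WT animal 334 was omitted. No omission gave a called member. Of the marker lists, which do not hold Myh2, 0 genes were called in this comparison. The tendon markers summed to a log2 level of 9.62 to 10.66 in KO and 10.50 to 11.26 in WT muscle. The part of Myh2 and of these markers in the members' values was not tested.

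**Figure D4:**
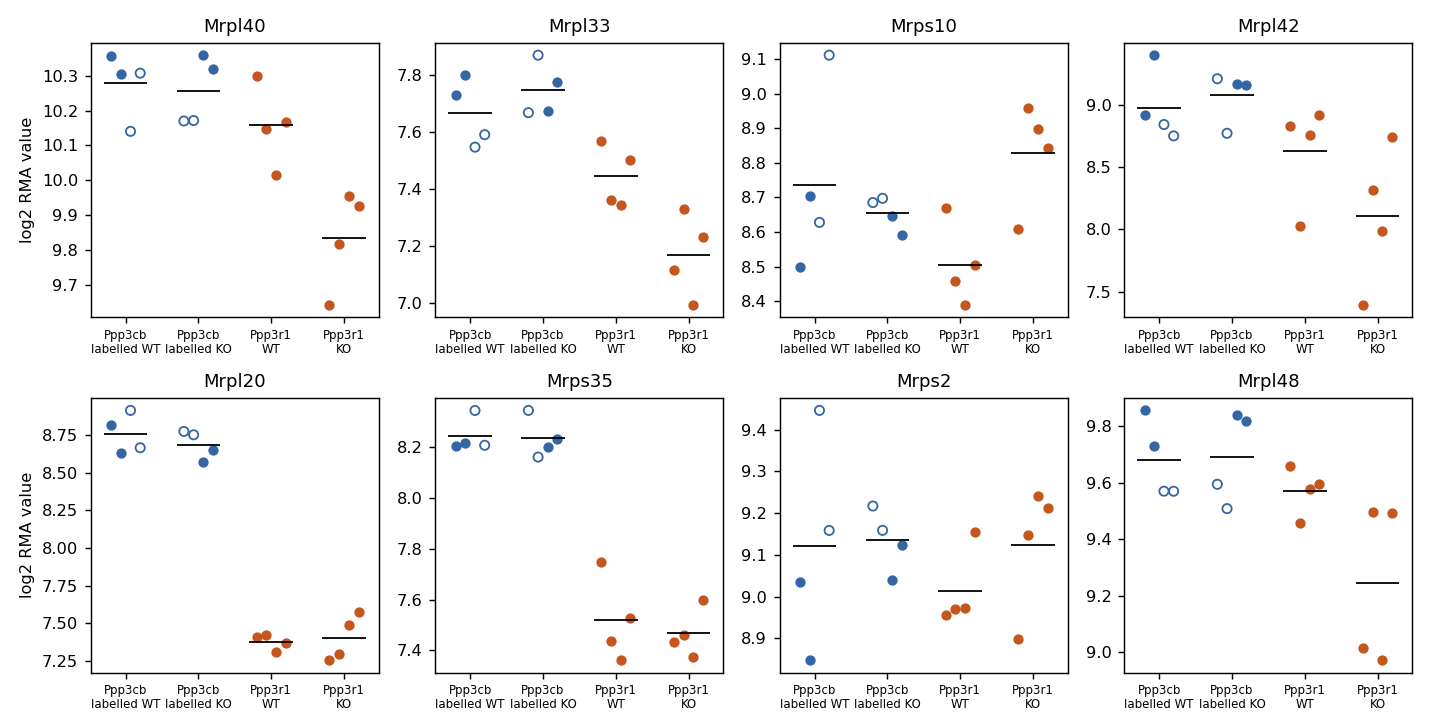
Log2 value of 8 members on every array, by group, with the group mean as a line; open circles mark arrays of the Ppp3cb line with Ppp3cb below 11. Mrpl40 and Mrpl33 have no overlap between Ppp3r1 KO and WT, Mrpl20 and Mrps35 part the lines on all arrays, and Mrps2 and Mrpl48 part the arrays of the Ppp3cb line by Ppp3cb value.

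The rest of the mitochondrial translation machinery was read from a list of 69 genes, of which 65 passed the filter. In Ppp3r1 KO muscle 41 of the 65 were below 0, with a median log2 difference of -0.08, and 0 were called. Taco1, an activator of translation of the cytochrome oxidase subunit 1 message, was 9.30, 8.90, 8.91 and 9.09 in WT and 7.82, 8.68, 8.14 and 9.15 in KO muscle. Its log2 difference was -0.61 (SE 0.20, limma adjusted p = 0.363), and animals 331 and 414 were again the lowest. Slirp, which stabilises mitochondrial messages with Lrpprc, differed by -0.35 (SE 0.13), and Oxa1l, the inner membrane insertase for the newly made proteins, by 0.28 (SE 0.12).

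Among ribosomal proteins under other symbols, Chchd1, Ptcd3 and Dap3, all of the small subunit, differed by -0.37 (SE 0.15), -0.20 (SE 0.15) and -0.13 (SE 0.14). Of the assembly factors, Fastkd2 and Rbfa differed by -0.28 (SE 0.10) and -0.25 (SE 0.11), and Mrm2, a methyltransferase of the large ribosomal RNA, by 0.14 (SE 0.08). For the charging of mitochondrial tRNAs, Qrsl1 differed by -0.29 (SE 0.12), Rars2 by -0.25 (SE 0.12) and Cars2 by -0.21 (SE 0.11). Tefm, Tfam and Tfb2m, which serve transcription of mitochondrial DNA, differed by -0.18 (SE 0.12), -0.26 (SE 0.20) and -0.15 (SE 0.12). None of these genes was called. Between WT groups 38 of the 65 were called lower in the Ppp3r1 line and 1 higher, against 24.3% and 10.7% of all clusters. Their median log2 difference was -0.35, against -0.10 for all clusters, and Tfam, which packages mitochondrial DNA, differed by -0.84 (SE 0.20, limma adjusted p = 0.00517).

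In the Ppp3cb line, arrays labelled KO and WT had nearly the same member values. At an adjusted p under 0.05 (limma) 0 members were called, as were 0 of all clusters (0%), and at an unadjusted p under 0.05 it was 0 members and 1.73% of all clusters, 0.859% lower and 0.872% higher. The median log2 difference was -0.01, with 42 members below 0, and 44.1% of all clusters were below 0. Mrps24, a bacterial-type protein of the small subunit, was the only member lower without overlap, where 0.734% of all clusters were. It was 9.57, 9.44, 9.41 and 9.49 on arrays labelled WT and 9.26, 9.35, 9.29 and 9.38 on those labelled KO, a log2 difference of -0.15 (SE 0.11). Mrpl2, Mrpl21 and Mrps18a were higher without overlap, where 0.774% of all clusters were, with log2 differences of 0.09, 0.15 and 0.21.

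The other members with the smallest p in this comparison were Mrps26, Mrpl12 and Mrps33, with log2 differences of -0.20 (SE 0.15), -0.14 (SE 0.12) and -0.14 (SE 0.12), and Mrpl22 and Mrps23, with 0.24 (SE 0.13) and 0.10 (SE 0.10). When the 4 arrays that contradict their label were left out, the median was 0.02 with 30 members below 0 and 0 called, while 14 clusters in all were called. The median also turned above 0 when arrays were centred on their median, at 0.03 with 21 members below 0, so the count below 0 has no settled side.

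Grouped by Ppp3cb value, the 4 arrays below 11 (animals 18, 5, 23 and 24) were compared with the 4 above (animals 6, 9, 12 and 2), each set holding 2 arrays labelled KO and 2 labelled WT. These sets rest on a measured value and not on a label. Again 0 members were called, in a comparison where 0.584% of all clusters were. At an unadjusted p under 0.05 (limma) 2 members were lower and 5 higher, against 5.99% and 7.71% of all clusters. The groups did not overlap for 3 members lower and 7 higher, and for 5.58% and 6.58% of all clusters. In all 27 members were below 0, against 46.5% of all clusters, with a median log2 difference of 0.03. Neither value was stable. Omitting animal 18 left 39 below 0 with a median of -0.00, and repeated quantile normalization 21 with a median of 0.06. The 7 members at an unadjusted p under 0.05 (limma) became 1 without animal 6 or animal 2, 2 without animal 5 or animal 23, 0 with median centring and 13 with the line fitted alone.

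Mrps2, a bacterial-type protein of the small subunit, was 9.22, 9.16, 9.45 and 9.16 below 11 and 9.04, 9.12, 9.03 and 8.85 above, a gap of 0.23 on the log2 scale (SE 0.10, limma adjusted p = 0.316). Mrps12, whose bacterial counterpart sits at the decoding centre, Mrps34 and Mrpl14 were also higher without overlap, with log2 differences of 0.19 (SE 0.08), 0.26 (SE 0.12) and 0.27 (SE 0.12). In the other direction, Mrpl48, of the central protuberance, was 9.59, 9.51, 9.57 and 9.57 below 11 and 9.84, 9.82, 9.86 and 9.73 above. That difference was -0.25 (SE 0.11, limma adjusted p = 0.335). Mrpl23, which in bacteria lines the tunnel exit, was lower by -0.20 (SE 0.09), and by -0.21 on its second probe set. Mrps33 and Mrps18c differed by -0.21 (SE 0.12) and -0.19 (SE 0.11) with overlapping groups.

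Whether the labelled KO effect differed between the lines was tested in the same fit. For 0 members was the difference called, and for 0% of all clusters, with 2 members lower and 1 higher at an unadjusted p under 0.05 (limma), and 5.31% of clusters, 2.75% lower and 2.56% higher. The median over members of the Ppp3r1 effect minus the Ppp3cb effect was -0.09, with 51 members below 0 against 49.4% of all clusters. It ranged from -0.03 with 46 below 0 without KO animal 331 to -0.15 with 63 below 0 without KO animal 416, where 14 members were at an unadjusted p under 0.05 (limma). Median centring gave -0.15 with 67 below 0. The members with the smallest p were Mrpl33 with -0.36 (SE 0.13), Mrpl40 with -0.30 (SE 0.13), Mrps11 with -0.30 (SE 0.15) and Mrpl48 with -0.34 (SE 0.18) on the lower side. On the higher side they were Mrps10 with 0.40 (SE 0.17), Mrps16 with 0.19 (SE 0.13), Mrps27 with 0.22 (SE 0.17) and Mrps21 with 0.29 (SE 0.29), and Mrps21 turned to -0.00 with array weights. The 4 arrays that contradict their label enter this difference.

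Members varied together between mice of the same group. Deviations from group means were correlated for every pair of members over the 16 arrays, and Pearson's r averaged 0.381, against 0.0367 for all pairs of tested clusters, 0.284 for cytosolic ribosomal proteins, 0.311 for the other mitochondrial translation genes and 0.486 for the OXPHOS subunits. This is a description over 16 arrays, and all genes share the arrays and their normalization. In the Ppp3r1 line the members' mean r was 0.481 and in the Ppp3cb line 0.141, over 8 arrays each. After a repeated quantile normalization, added after the data were seen, it was 0.329 over all arrays, with 0.0655 for all clusters and 0.529 for the OXPHOS subunits. Leaving out 1 array, also added after the data were seen, gave 0.294 without KO animal 416 of the Ppp3r1 line, 0.296 without its KO animal 331 and up to 0.431 without its KO animal 414.

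**Figure D5:**
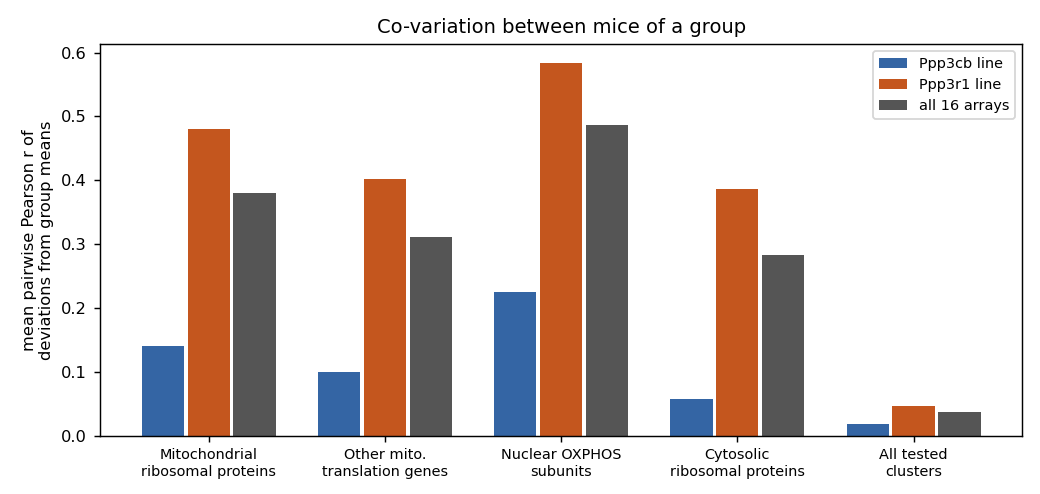
Mean pairwise Pearson correlation of deviations from group means within each gene list, over the 8 arrays of each line and over all 16 arrays. The mitochondrial ribosomal proteins reach 0.481 in the Ppp3r1 line and 0.141 in the Ppp3cb line, against 0.0464 and 0.0187 for all tested clusters.

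Each member was also set against the median of the other 76. The correlation was positive for 75 of 77, with a median of 0.675. The like count for all clusters or for other lists was not taken, so this count cannot be called particular to the members. It was highest for Mrpl36 (0.925), a small bacterial-type protein of the large subunit, Mrpl2 (0.911), whose bacterial counterpart lies near the peptidyl transferase centre, and Mrps23 (0.889). Mrps36, whose protein belongs to another complex, followed the others at 0.858. The lowest were Mrpl44 (-0.196), Mrps16 (-0.0910) and Mrpl23 (0.0485). Mrpl44, at 6.69 to 7.08 on all arrays, was near the low end of the measured range. So was Mrps36, while Mrpl23 was near the high end. Whether signal level bears on these correlations was not tested.

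Because the members varied together, their promoters were read for motifs that are known for housekeeping and mitochondrial genes. RefSeq windows on GRCm38.p6 from 250 bases before to 50 after the transcription start were found for 68 of the 77 members. Only the first listed window of each gene was used, and 3 members had several, so other start sites were not read. Motifs were searched as exact letters on both strands, with N for any base. The NRF1 motif, GCGC and TGCGC with any 1 base between, bound by a factor known for activating nuclear genes of the respiratory chain, was in 13 of 68 windows (19.1%), in 4.78% of all genes and in 9.08% of the genes tested here. The ETS motif CCGGAAG, which GABP (NRF2) binds, was in 24 windows (35.3%), against 9.12% of all genes and 15.7% of tested genes. The YY1 motif AANATGGCG was in 11 (16.2%), against 2.51% and 4.59%. At least one of the NRF1 and ETS motifs was in 33 windows (48.5%), against 13.0% and 23.0%. For comparison, the E-box CACGTG was in 5 (7.35%), against 7.24% of all and 9.79% of tested genes. A loose MEF2 pattern, CTA and TAG with any 4 bases between, was in 6 (8.82%), against 3.70% and 3.28%. It admits G and C at those 4 bases, so its matches cannot be counted as MEF2 sites. The ZNF143 motif, ACTACAA followed by TTCC, was in 0 windows. An ETS and a YY1 motif can overlap by the letters AAG, so a window can count for both. A match describes letters and not binding.

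A set of 5 windows is shown because their genes mark the results above: Mrpl36, Mrpl30 (0.881) and Mrps23 followed the other members most closely among genes with a YY1, NRF1 or ETS motif, Mrpl33 did not overlap between Ppp3r1 KO and WT, and Mrpl20 parted the lines. Each is written 5′ to 3′ on the strand of its gene, with the matched motifs in capitals. All lie on the plus strand of GRCm38.p6, Mrpl36 at chr13:73330759-73331058, Mrpl30 at chr1:37890227-37890526, Mrps23 at chr11:88204138-88204437, Mrpl33 at chr5:31613701-31614000 and Mrpl20 at chr4:155802628-155802927.
Mrpl36: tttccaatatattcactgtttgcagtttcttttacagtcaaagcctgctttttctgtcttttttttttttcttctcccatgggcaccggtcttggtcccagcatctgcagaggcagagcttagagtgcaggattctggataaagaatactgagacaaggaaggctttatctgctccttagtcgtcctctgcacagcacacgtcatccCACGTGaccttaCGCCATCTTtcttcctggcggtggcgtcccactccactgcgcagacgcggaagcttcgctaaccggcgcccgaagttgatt
Mrpl30: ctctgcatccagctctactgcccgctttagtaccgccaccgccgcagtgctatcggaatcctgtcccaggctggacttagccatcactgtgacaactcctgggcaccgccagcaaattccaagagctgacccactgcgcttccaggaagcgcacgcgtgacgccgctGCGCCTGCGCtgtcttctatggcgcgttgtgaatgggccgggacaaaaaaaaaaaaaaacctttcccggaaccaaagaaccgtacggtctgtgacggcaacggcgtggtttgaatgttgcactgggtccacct
Mrps23: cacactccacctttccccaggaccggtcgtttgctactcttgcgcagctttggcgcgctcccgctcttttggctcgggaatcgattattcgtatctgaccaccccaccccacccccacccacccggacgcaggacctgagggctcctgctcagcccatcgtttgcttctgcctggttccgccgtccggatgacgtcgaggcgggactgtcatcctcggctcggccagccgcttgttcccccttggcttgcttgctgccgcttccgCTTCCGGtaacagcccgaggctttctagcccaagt
Mrpl33: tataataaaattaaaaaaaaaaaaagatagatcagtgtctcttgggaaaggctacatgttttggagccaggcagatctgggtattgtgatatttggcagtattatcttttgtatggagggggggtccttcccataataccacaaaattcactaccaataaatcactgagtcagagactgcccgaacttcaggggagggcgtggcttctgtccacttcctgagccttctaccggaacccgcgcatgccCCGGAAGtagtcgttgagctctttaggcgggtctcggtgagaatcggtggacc
Mrpl20: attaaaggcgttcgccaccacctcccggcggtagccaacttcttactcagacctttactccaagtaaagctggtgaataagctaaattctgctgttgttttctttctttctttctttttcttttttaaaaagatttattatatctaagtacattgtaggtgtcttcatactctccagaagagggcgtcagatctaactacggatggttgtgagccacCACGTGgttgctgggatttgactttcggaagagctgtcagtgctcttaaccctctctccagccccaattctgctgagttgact

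In the window of Mrpl36 the capitals mark an E-box and a YY1 motif read on the opposite strand. In that of Mrpl30 they mark an NRF1 motif, in that of Mrps23 an ETS motif read on the opposite strand, and in that of Mrpl33 an ETS motif. The window of Mrpl20 holds an E-box and none of the NRF1, ETS or YY1 motifs. Mrpl40 and Mrps10, which had the smallest p in each direction in Ppp3r1 KO muscle, held none of the 6 motifs in their windows.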

How the data were processed

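RNA of 16 gastrocnemius muscles was read on Affymetrix Mouse Gene 1.0 arrays, 1 per mouse, in 4 groups of 4 by the labels. The authors deposited log2 values of 35557 probe sets, made with GCOS 1.0 and RMA per the submitters' processing notes; background correction, annotation and whether the lines were normalized together were not found in the sources used here. The deposited table also holds a ratio for each value, which equals the linear value over its line's median and was used as a check only. A second deposited table held the same log2 values, with 0 differing by over 0.0001. RMA is meant to pull arrays to a common distribution, so differences are relative to the other transcripts on an array. The deposited arrays still differed by line. Their medians over all probe sets ran from 6.68 to 6.77 in the Ppp3cb line and from 6.81 to 6.94 in the Ppp3r1 line. Over the tested clusters the order was reversed, with 7.85 to 7.95 against 7.66 to 7.81.

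Probe sets were named from GEO's platform annotation: 21789 had 1 symbol, 1621 several and 12147 were not listed and stay unnamed. Those with 1 symbol and a mean at or above the 30th percentile were fitted in R 4.3.3 with limma 3.58.1, by group means and eBayes with intensity trend (12 residual degrees of freedom), with Benjamini-Hochberg adjustment over 15252 clusters. The split by Ppp3cb value used the same fit with those sets as groups. Exact two-sided permutation tests used 4 against 4 arrays. Of the 77 members, 8 had a second probe set. Depth has no counterpart on arrays, and their number limits the precision.

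The members and lists were chosen with earlier results of these data known. Named in the text are the targeted genes, the 6 members per direction with the smallest p in Ppp3r1 KO minus WT, the 4 per direction in each other comparison, every called member, the 3 highest, 3 lowest and 3 most variable members, and from each list of other mitochondrial translation genes the 3 with the smallest p. Genes without overlap, with the highest or lowest correlation, or with a promoter shown were named after their values were seen. Lists stand by counts and medians beside all clusters. Alternatives were the filter, the normalization, array weights, no intensity trend, probe set averages, each line alone, each array left out and the 4 arrays that contradict their label left out.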

Additional observations from a re-analysis of the deposited data

Results flagged for a closer look

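In 16 of 232 groups of 4 checked, 1 mouse lay far from the other 3 by Dixon's gap over range at the 95% level, where chance gives about 1 in 20. No explanation was tested. In the Ppp3cb line, among mice labelled KO, Mrpl21 was 8.65 in animal 18 and 8.39 to 8.41 in the others, and Mrpl42 was 8.77 in animal 5 and 9.16 to 9.21 in the others. Animal 6 stood apart for a pair of genes there, with Mrpl46 at 8.21 against 8.38 to 8.41 and Mrps14 at 7.88 against 7.70 to 7.73. Among mice labelled WT, animal 23, whose Ppp3cb value goes against its label, had the highest Mrps26, 8.36 against 7.93 to 7.94, and the highest Mrps35, 8.34 against 8.20 to 8.22.

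In Ppp3r1 KO mice, animal 416 was high for Mrpl12, 9.85 against 9.32 to 9.38, and for Mrps12, 7.59 against 7.36 to 7.39. Animal 331, lowest in array median, was low for Mrpl2, 8.13 against 8.56 to 8.64, and for Mrpl55, 9.11 against 9.37 to 9.41. Mrps17 was 6.40 in animal 335 against 6.66 to 6.71.

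In WT mice of that line, animal 336 was low 3 times. Mrpl16 was 8.84 against 9.52 to 9.65, Mrps17 was 6.29 against 6.64 to 6.71 and Mrps24 was 9.17 against 9.34 to 9.36. Mrpl39 was 9.24 in animal 334 against 9.07 to 9.09, and Mrps2 was 9.16 in animal 415 against 8.96 to 8.97.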

How the results depend on the processing

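No member was called in the Ppp3r1, labelled Ppp3cb, Ppp3cb level or difference comparison under any alternative run. No called gene changed sign. Uncalled summaries did. The labelled Ppp3cb members went from 42 below 0 to 21 with median centring and 30 without the 4 arrays that contradict their label, and the Ppp3cb level members from 27 to 39 without animal 18. Of the alternative values of single genes, 2107 kept their direction and side of the threshold or moved by less than the spread, 101 lost a call, 1 gained one and 14 moved further.

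Centring arrays on their median moved the members' WT line difference to a median of -0.40 and gave 1 called cluster for the difference of effects and 57 for the Ppp3cb level (89 as reported). With each line fitted alone, 139 clusters were called for the level and 0 for Ppp3r1, where 1 was reported, and with array weights 544 and 2. Without the 4 arrays that contradict their label, 3324 clusters and 14 members were called between WT groups (5343 and 34 as reported), 14 clusters for labelled Ppp3cb and 7 for the difference of effects. KO-labelled arrays in place of WT arrays, chosen after seeing the data, gave 8333 clusters, 53 members and a median of -0.40. The cause of these shifts was not tested.

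Leaving out 1 array at a time gave 1 to 12 called clusters for Ppp3r1 (12 without KO 416, 3 without WT 12 of the other line and 2 without KO 331), 0 to 2 for labelled Ppp3cb, 0 to 1 for the difference, 36 to 117 for the level, and 3099 to 5784 clusters and 19 to 40 members for the WT groups, lowest without WT 336 in both. No paired analysis was possible because the groups share no animal numbers. Animal numbers of the Ppp3r1 line fall in a lower and a higher series; that series as a block in the line alone left 58 members lower in KO, 9 at an unadjusted p under 0.05 (limma) and a median of -0.05. The members' median SE in Ppp3r1 KO minus WT was 0.11 on the log2 scale, which limits the differences that 4 arrays a group can resolve.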
